A study of Mus musculus with 48 samples.

Results

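The nuclear-encoded subunit genes of respiratory complexes III, IV and V were examined in subcutaneous white adipose tissue (sWAT, the inguinal depot) of mice that were 8 months old, given as C57BL/6 in the labels and as C57BL/6J males in the study's methods. They were taken by name, as all protein-coding genes of the count table whose symbol begins with Uqcr, with Cox4 to Cox8 or with Atp5, leaving out the muscle and brown fat isoforms Cox7a1 and Cox8b. The rule gave 42 of the 54532 genes listed, of which 8 belong to complex III, 16 to complex IV and 18 to complex V. Mice were either fed ad libitum (ad-lib) or given food only in a pair of short windows each night, the twice-a-night schedule abbreviated as TAN, and poly-A RNA of their sWAT was sequenced at 8AM, 12PM, 4PM, 8PM, 12AM and 4AM. There were 4 libraries of each diet at each time, 48 in 12 groups, and no genotype, transgene or drug separated them.

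Total counts per library ranged from 15636378 to 29913310. In the series' design text the samples are stromal vascular cells, and in the study's methods whole tissue. CPM are counts scaled to the library total after TMM adjustment (a correction for library composition), not to the plain total. The 8 adipocyte markers of the list used here summed to at least 12910 CPM in every ad-lib library and at least 8739 CPM in every TAN library. The clock times are those of the sample labels. In an expression table that accompanies the study, each of the 48 libraries matched best, over 942 genes, the same animal listed under a time 12 h away, so a time named here may differ by 12 h, while the diet and the members of each group are the same. In ad-lib mice by the labels used here, the clock gene Arntl was highest at 8AM (4.97 ± 0.42 log2 CPM, SD, n = 4) and lowest at 4PM (3.28 ± 0.44 log2 CPM). In 10 libraries the 10 lymphocyte markers had a mean log2 CPM under 2, against 4.50 or more in the other 38. These were 3 of the 4 TAN libraries at 4PM, 2 TAN libraries at 12AM, 1 TAN library at 8PM and 4 ad-lib libraries at 8AM, 12PM (2 libraries) and 4AM, and the counts of called genes at 4PM and 8PM and over the day, and the isoform ratios over the day, are given with and without them. Without them 0 members were called at 8AM, 12PM, 12AM and 4AM by edgeR, as with them.

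Complex III passes electrons from ubiquinol to cytochrome c, complex IV (cytochrome c oxidase) passes them on to oxygen, and both pump protons across the inner mitochondrial membrane. Complex V, the ATP synthase, lets the protons flow back through a ring of c subunits in its membrane part Fo and uses the rotation to make ATP in its head, F1. Most subunits of these complexes are nuclear-encoded and join a small mitochondrially encoded core, and several subunits of complex IV and the c subunit of complex V come from more than 1 gene, with tissue-specific or regulated isoforms. Beige and brown adipocytes are rich in mitochondria, and in white fat the amount of respiratory chain is commonly used as a marker of browning.

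Of the 42 genes, 39 passed the expression filter and could be tested. Cox7b2 and Cox8c, both testis isoforms, and a second gene identifier named Atp5o that overlaps the main Atp5o gene had 0 counts in all 48 libraries. For such a gene the floor was set at 3 counts per library. On a length-corrected scale (median CPM per kb of gene model over the 48 libraries), the level in complex III ran from 74.1 for Uqcrc1, a core protein, to 256.6 for the small subunit Uqcr10. In complex IV it ran from 874.3 for Cox8a, 581.4 for Cox6a1 and 504.3 for Cox4i1 down to the rarer isoform genes Cox4i2 (8.94), Cox6a2 (1.46) and Cox6b2 (0.933). In complex V the catalytic head subunits Atp5b (497.7) and Atp5a1 (429.1) were highest, and Atp5g1 (8.10), a c ring gene, and Atp5s (6.08), the coupling factor B gene, were lowest. Whether counting used strand is not given in the sources used here, and Cox4i1, Cox6c, Atp5f1 and Atp5j overlap a gene on the other strand (Emc8, Vps13b, Wdr77 and Gabpa), so reads of the partners cannot be told apart. For Atp5j the partner Gabpa had a median of 1791.5 counts against 3980.5 for Atp5j itself.

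Promoter sequence is shown for 3 genes that the results turn on, namely Atp5g3, the c ring gene that rose at 4PM, Cox7a2l, the complex IV gene that was called at 8PM and not at 4PM, and Cox5a, which had the smallest adjusted p over the day. Each is the stretch of 250 bases before the RefSeq start site (GRCm38.p6), written 5′ to 3′ on the gene's strand, and none overlaps an annotated exon. They lie at chr2:73911327-73911576 on the minus strand, chr17:83514334-83514583 on the minus strand and chr9:57520982-57521231 on the plus strand, and capitals mark matches to the motifs searched.
Atp5g3: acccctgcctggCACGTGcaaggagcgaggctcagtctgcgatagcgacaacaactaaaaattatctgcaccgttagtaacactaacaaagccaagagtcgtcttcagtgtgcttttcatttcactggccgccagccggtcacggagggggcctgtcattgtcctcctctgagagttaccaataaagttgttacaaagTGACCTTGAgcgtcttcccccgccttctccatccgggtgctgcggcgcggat
Cox7a2l: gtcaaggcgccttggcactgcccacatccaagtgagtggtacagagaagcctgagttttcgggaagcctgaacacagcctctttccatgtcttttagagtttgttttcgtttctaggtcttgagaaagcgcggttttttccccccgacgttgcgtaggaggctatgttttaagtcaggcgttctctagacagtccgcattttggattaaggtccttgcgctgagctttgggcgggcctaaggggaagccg
Cox5a: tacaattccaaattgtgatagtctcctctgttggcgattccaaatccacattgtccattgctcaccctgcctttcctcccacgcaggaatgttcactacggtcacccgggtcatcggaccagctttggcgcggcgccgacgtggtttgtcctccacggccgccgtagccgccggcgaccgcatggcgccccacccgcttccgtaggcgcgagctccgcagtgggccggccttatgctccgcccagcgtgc

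The Atp5g3 stretch holds the 9 bases TCAAGGTCA of an estrogen-related receptor (ERR) element, read on the other strand and 52 bases before the start, and the E-box CACGTG 238 bases before it. The stretches of Cox7a2l and Cox5a hold none of the 5 motifs searched, which says only that these letters are not in those windows. Promoters of 29 of the 41 gene symbols were in the RefSeq table. On either strand, the NRF1 element GCGCATGC, whose matches on the 2 strands can overlap each other, stood in 4 of the 29 (13.8%, Atp5g2, Atp5k, Atp5l and Cox6a1) against 2.32% of all 27025 promoters. The ETS element CCGGAAG stood in 7 (24.1%) against 7.05%, the E-box in 3 (10.3%, Atp5g1, Atp5g3 and Atp5l) against 6.05%, the ERR element in 1 (3.45%) against 0.366%, and the YY1 element AAGATGGC in 0 against 1.59%. These are descriptions of letters, not of bound sites.

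TAN was compared with ad-lib at each time to see when the feeding schedule went with a different level of these transcripts. The difference was greatest at 4PM. There 32 of the 39 tested genes were higher in TAN (6.54% of all 19977 genes tested were) and 0 were lower (8.77% of all genes), by edgeR's quasi-likelihood test with a Benjamini-Hochberg adjusted p under 0.05. All 8 tested genes of complex III, 10 of 14 of complex IV and 14 of 17 of complex V rose. The median log2 fold change was 1.21 for complex III, 1.13 for complex IV and 1.04 for complex V, and 1.09 over the 39, where the median over all genes was −0.09. In 33 of the 39 all 4 TAN libraries stood above all 4 ad-lib libraries, as they did in 12.8% of all genes.

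The summed level of complex III genes at 4PM was 1248, 1240, 985.7 and 1031 CPM in the ad-lib libraries and 2844, 1988, 2856 and 2479 CPM in the TAN libraries. For complex IV the sums were 2538, 2491, 1908 and 1984 CPM in ad-lib and 5793, 3726, 5750 and 4125 CPM in TAN, and for complex V 4737, 4867, 3588 and 4077 CPM in ad-lib and 10800, 7279, 9795 and 8895 CPM in TAN. In each complex the lowest TAN library was well above the highest ad-lib library.

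**Figure D1:**
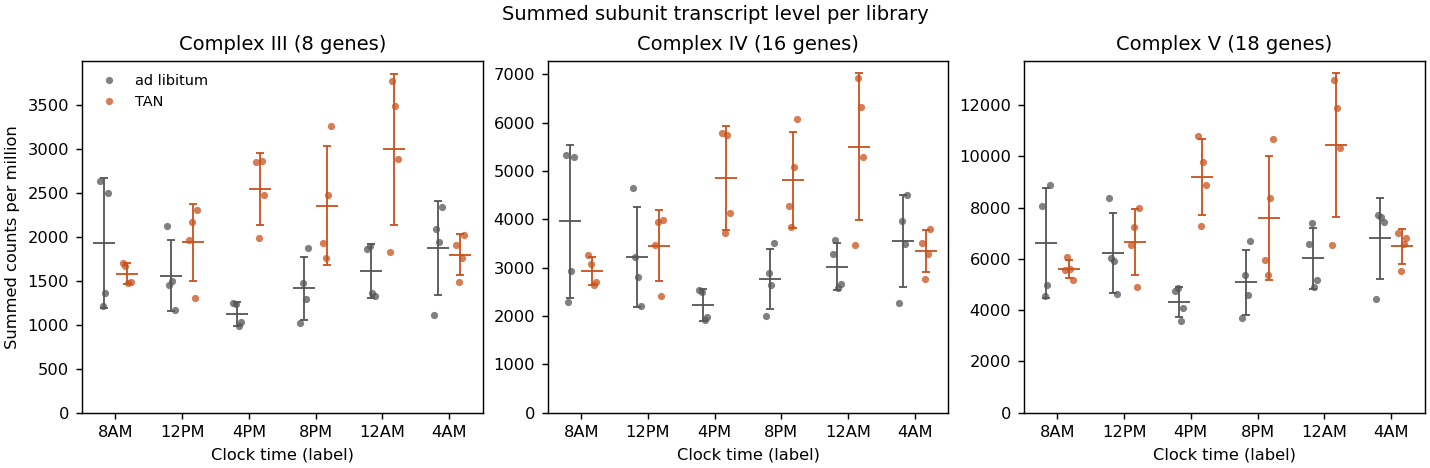
Summed CPM of the tested and untested genes of complexes III, IV and V in each library, by clock time, for ad-lib and TAN mice. Each point is 1 library (4 per diet and time), and bars give the mean and SD of each group. At 4PM the diets do not overlap in any complex (complex III 985.7 to 1248 CPM in ad-lib and 1988 to 2856 CPM in TAN).

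Markers of other cells moved with diet at 4PM. All 10 lymphocyte markers had a negative fold change and 4 of them fell (median log2 fold change −3.72), and their summed level was 968.1 to 1685 CPM in the ad-lib libraries and 8.97 to 324.9 CPM in the TAN libraries. All 8 adipocyte markers had a positive fold change and 2 rose (median 1.16), with summed levels of 17400 to 25120 CPM in ad-lib and 38460 to 66650 CPM in TAN. Of the 11 skeletal muscle markers, 10 had a negative fold change and 0 were called by the same test (0 also at an unadjusted p under 0.05), and the fibre myosins Myh1, Myh2 and Myh4 were at 0 in all 4 TAN libraries. The 7 beige markers summed to 57.2 to 120.5 CPM in ad-lib and 129.5 to 281.1 CPM in TAN (3 rose), and the 4 mammary epithelium markers to 4.13 to 7.17 CPM and 0.391 to 3.29 CPM (1 fell), neither with overlap. The 5 stroma markers summed to 1696 to 2948 CPM and 2786 to 4967 CPM (0 called, 1 at an unadjusted p under 0.05), and the 6 macrophage markers to 420.1 to 574.2 CPM and 183.8 to 515.8 CPM (1 fell). TEC loci, an annotation class for transcribed loci of unproven gene status, took 0.0882% to 0.11% of the counts in ad-lib and 0.0327% to 0.0847% in TAN. The lymphocyte, adipocyte, beige and mammary epithelium markers and the TEC share did not overlap between the diets at 4PM. Their part and that of the diet therefore cannot be told apart there. With the lymphocyte level or the TEC share as a covariate 0 of the 39 genes were called, and no covariate of adipocyte or beige markers was fitted. Without the 10 libraries low in lymphocyte markers, a choice made after seeing the data that leaves 1 TAN library at 4PM, assumed to vary like the other groups, 24 were called. In bulk tissue, fewer cells of a type and less RNA per cell cannot be told apart. The call also leaned on the ad-lib library of replicate 3, the lowest in all 3 sums, without which 14 genes were called. Without replicate 3 of both diets at all times, 1 gene was called at 4PM.

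In complex III the largest increase at 4PM was that of Uqcrq, a small membrane subunit. Its level was 158.3, 146.3, 112.1 and 103.6 CPM in ad-lib and 487.2, 277.7, 440.5 and 340.8 CPM in TAN, a log2 fold change of 1.57 ± 0.33 (SE, n = 4 per diet, edgeR quasi-likelihood, Benjamini-Hochberg adjusted p = 0.00724). No TAN library overlapped ad-lib. Uqcrb, which takes part in ubiquinone binding, was at 97.4, 88.1, 64.3 and 79.8 CPM in ad-lib and 385.9, 134.2, 230.3 and 187.4 CPM in TAN (log2 fold change 1.51 ± 0.33, adjusted p = 0.00795). TAN replicate 1 was far above the other TAN libraries for this gene. Uqcrc2, core protein 2 and a common antibody target for complex III, was at 226.1, 233.1, 176.8 and 205.2 CPM in ad-lib and 448.4, 340.1, 411.4 and 459.8 CPM in TAN (log2 fold change 0.98 ± 0.25, adjusted p = 0.0143). The groups did not overlap, and without ad-lib replicate 3 the call was lost (log2 fold change 0.93). The other members rose by 0.85 to 1.37 on the log2 scale, the least being Uqcrh, the hinge protein, and the most Uqcr11, a small subunit, and Uqcrfs1, the Rieske iron-sulfur protein that carries the electron to cytochrome c1, rose by 1.07 ± 0.29 (adjusted p = 0.0156).

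In complex IV the largest increases at 4PM were those of the small subunits Cox7c and Cox6c. Cox7c was at 157.7, 150.2, 108.6 and 108.1 CPM in ad-lib and 544.8, 204.0, 392.7 and 247.7 CPM in TAN (log2 fold change 1.41 ± 0.30, SE, n = 4 per diet, edgeR quasi-likelihood, Benjamini-Hochberg adjusted p = 0.00795). Cox6c was at 272.0, 235.0, 181.4 and 213.0 CPM in ad-lib and 850.2, 385.8, 624.2 and 469.0 CPM in TAN (log2 fold change 1.37 ± 0.29, adjusted p = 0.00705). Neither gene's groups overlapped, and in both TAN replicate 1 was highest and TAN replicate 2 lowest. Cox5a was at 70.1, 61.8, 56.7 and 44.3 CPM in ad-lib and 111.9, 107.4, 149.7 and 126.4 CPM in TAN (log2 fold change 1.09 ± 0.25, adjusted p = 0.00933), again without overlap. Cox5b, the zinc-binding subunit, had the smallest adjusted p of all members at this time (0.00618, log2 fold change 1.34 ± 0.27). The 4 tested genes of complex IV that were not called at 4PM were the rarer isoforms Cox4i2, Cox6a2 and Cox6b2, and Cox7a2l, the supercomplex factor.

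In complex V all 5 genes of the F1 head and central stalk and all 4 of the peripheral stalk rose, as did 3 of 4 small membrane genes and 1 of 3 c ring genes. Atp5a1, the alpha subunit of the head, was at 1001, 1001, 784.6 and 889.7 CPM in ad-lib and 2030, 1466, 1812 and 2063 CPM in TAN (log2 fold change 1.004 ± 0.25, SE, n = 4 per diet, edgeR quasi-likelihood, Benjamini-Hochberg adjusted p = 0.0125). The groups did not overlap, and the call was lost without ad-lib replicate 3 (log2 fold change 0.96). Atp5j2, subunit f of the membrane part, was at 167.1, 167.6, 138.6 and 143.3 CPM in ad-lib and 598.3, 259.2, 430.9 and 292.8 CPM in TAN (log2 fold change 1.36 ± 0.29, adjusted p = 0.00724). Atp5o, the oligomycin sensitivity protein that joins the peripheral stalk to the head, was at 94.6, 83.4, 62.2 and 62.4 CPM in ad-lib and 134.6, 160.5, 217.6 and 204.3 CPM in TAN (log2 fold change 1.25 ± 0.31, adjusted p = 0.0119), a call lost without ad-lib replicate 3 (1.18). Atp5j2 and Atp5o did not overlap between the diets. Atp5k, subunit e, was the membrane gene not called, with a fold change as large as its neighbours' but more spread (1.12 ± 0.45, adjusted p = 0.0797).

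**Figure D2:**
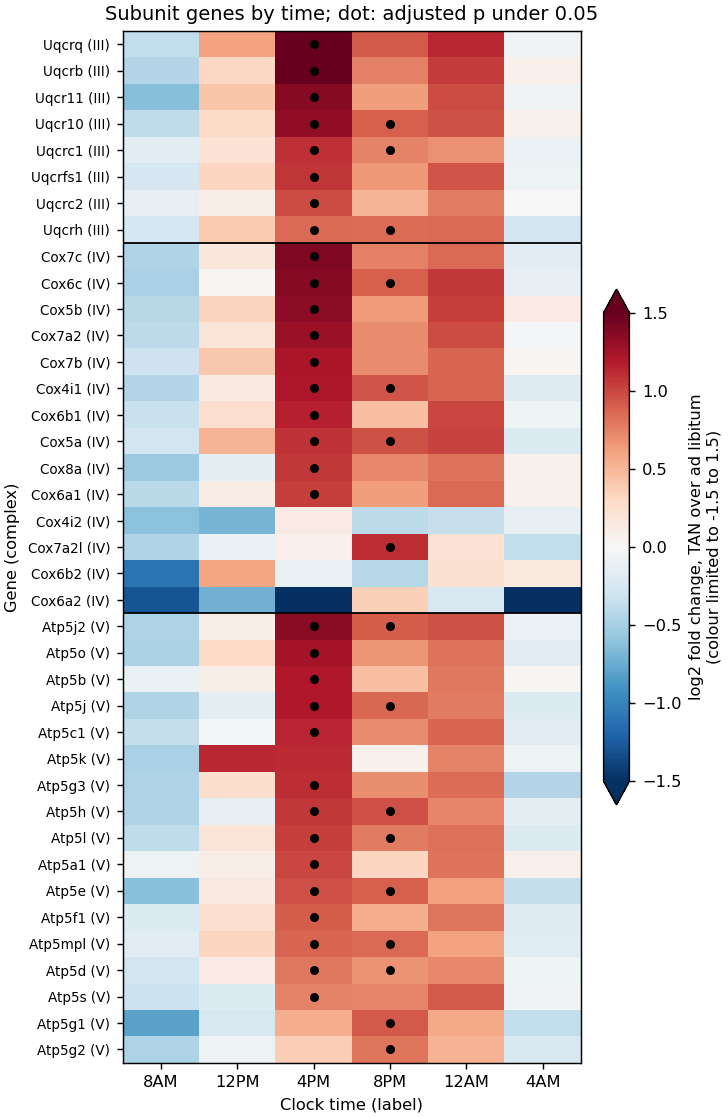
Log2 fold change of TAN against ad-lib for the 39 tested genes (one per line, grouped by complex) at the 6 clock times, from the edgeR fit. Colour is limited to ±1.5 and a dot marks an adjusted p under 0.05. Dots stand at 4PM (32 genes) and 8PM (16 genes), and all 39 genes are below 0 at 8AM.

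At 8PM fewer genes were called and complex V held most of them. In all 16 of the 39 genes rose (3.76% of all genes tested) and 0 fell (7.91% of all genes), namely 3 of 8 in complex III, 4 of 14 in complex IV and 9 of 17 in complex V, by the same edgeR test. The median log2 fold change was 0.75, 0.71 and 0.73 in complexes III, IV and V. In 17 genes all TAN libraries were above all ad-lib libraries, as in 4.55% of all genes. Of the 16 genes, 13 were also called at 4PM (81.2% of the 8PM calls and 40.6% of the 4PM calls), and the 3 called only at 8PM were Atp5g1, Atp5g2 and Cox7a2l. The summed level of complex III was 1014, 1472, 1290 and 1875 CPM in ad-lib and 1931, 1754, 2475 and 3258 CPM in TAN, that of complex IV 2008, 2887, 2641 and 3501 CPM in ad-lib and 4267, 3834, 5088 and 6070 CPM in TAN, and that of complex V 3705, 5357, 4576 and 6697 CPM in ad-lib and 5941, 5379, 8387 and 10680 CPM in TAN. The diets overlapped in the sums of complexes III and V and not in that of complex IV.

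Cox4i1, the general isoform of subunit 4, rose at 8PM from 436.8, 617.7, 591.2 and 832.1 CPM in ad-lib to 985.5, 961.3, 1356 and 1460 CPM in TAN (log2 fold change 0.94 ± 0.27, SE, n = 4 per diet, edgeR quasi-likelihood, Benjamini-Hochberg adjusted p = 0.0242). Cox5a rose from 71.2, 71.0, 73.4 and 89.4 CPM to 145.7, 122.0, 117.0 and 208.3 CPM (0.96 ± 0.25, adjusted p = 0.0140). Neither overlapped between the diets. Cox6c (0.90 ± 0.28, adjusted p = 0.0342) and Atp5j2 (0.91 ± 0.28, adjusted p = 0.0332) were called at both times, whereas Uqcrc2 and Atp5a1 were not called at 8PM. Uqcrc2 was at 156.3, 249.4, 203.1 and 298.5 CPM in ad-lib and 233.8, 173.8, 393.4 and 495.7 CPM in TAN (0.51 ± 0.25, adjusted p = 0.171), and Atp5a1 at 779.8, 1132, 940.2 and 1477 CPM in ad-lib and 1016, 876.8, 1536 and 1981 CPM in TAN (0.32 ± 0.25, adjusted p = 0.428). Both overlapped between the diets. The calls at 8PM rested on few libraries, and without replicate 1 of both diets at all times 1 gene was called. Without 1 ad-lib library 4 (replicate 1), 5 (replicate 2) or 5 (replicate 3) genes were called, and without 1 TAN library (replicate 1, 3 or 4) 9 were, while a fit of the 8 libraries of that time alone called 0. TAN replicates 1 and 2 at 8PM were low in adipocyte markers, and without them 22 genes were called, as were 11 without the libraries low in lymphocyte markers (both chosen after seeing the data). The TEC share was 0.0807% to 0.104% in ad-lib and 0.0294% to 0.0394% in TAN at 8PM, so that it cannot be told apart from diet, and with it as a covariate 0 genes were called and the fold changes of Atp5a1, Uqcrb, Cox7c, Atp5o, Cox6a1, Cox6b1, Cox7a2 and Atp5g3 turned negative (−0.19 to −0.01).

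At the other times no member was called by edgeR at an adjusted p under 0.05. At 12AM 37 of 39 genes had a positive fold change (median log2 fold change 0.83, all genes −0.14) and 34 had an unadjusted p under 0.05, but the smallest adjusted p was 0.077, for Cox5a (log2 fold change 1.01), and 0.125% of all genes were called higher and 0.0250% lower. DESeq2 called 22 members at 12AM, where the share of all genes called by DESeq2, or by edgeR without single libraries, is not given. TAN replicate 1 was the lowest of its group there in all 3 sums. It also held the most lymphocyte marker RNA (1478 CPM summed, others 11.2, 382.4 and 14.5 CPM) and the least adipocyte marker RNA (32160 CPM, others 45960 to 65160 CPM), and the ad-lib libraries at 12AM had 1015 to 1321 CPM and 24890 to 34330 CPM. With the lymphocyte level as a covariate 0 members were called at 12AM, which shows nothing of its part, since 0 were called without it. The part of the adipocyte markers was not tested. The summed level of complex V was 6573, 7402, 4908 and 5192 CPM in ad-lib and 6557, 12980, 11880 and 10320 CPM in TAN, and without TAN replicate 1 edgeR called 28 members. At 8AM all 39 genes had a negative fold change (median −0.42), with 3 at an unadjusted p under 0.05, 0 called by DESeq2 and the smallest adjusted p at 0.397, and 1 was called without ad-lib replicate 2 (0.0100% of all genes were called higher and 0.00501% lower). At 12PM 29 of 39 were positive (median 0.17, 3 at an unadjusted p under 0.05, 0 called by DESeq2, 0.0851% of all genes called higher), and at 4AM 29 of 39 were negative (median −0.08, 1 at an unadjusted p under 0.05, 0 called by DESeq2, 0% of all genes called). All 4 TAN libraries were above all 4 ad-lib libraries for 11 members at 12AM (3.59% of all genes), for 1, Atp5k, at 12PM (3.30%), and for 0 at 8AM (2.03%) and 4AM (1.91%).

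Averaged over the 6 times, 25 of the 39 genes were higher in TAN (2.68% of all genes were) and 0 were lower (2.74%), being 7 of 8 in complex III, 8 of 14 in complex IV and 10 of 17 in complex V, by the edgeR test of the mean difference. All 25 were among the 32 called at 4PM. The median log2 difference was 0.38 (0.45, 0.42 and 0.35 in complexes III, IV and V), against −0.08 over all genes. Cox5a had the smallest adjusted p (0.0021, log2 difference 0.51 ± 0.10, n = 24 per diet) and Uqcrq the largest difference (0.63 ± 0.13, adjusted p = 0.00401). Without ad-lib replicate 1 at 4AM 15 genes were called, and without the 10 libraries low in lymphocyte markers 32 were. Without replicate 3 of both diets at all times 1 was called. With the TEC share as a covariate 6 were called, and with the lymphocyte level 22.

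In the edgeR test of the interaction of diet and time, 26 of the 39 genes were called (8.98% of all genes), of which 6 belonged to complex III, 8 to complex IV and 12 to complex V. The smallest adjusted p was that of Atp5g1 (0.00681). Without the libraries low in lymphocyte markers 12 were called, and without ad-lib replicate 1 or replicate 4 at 8AM 14 or 13 were. Leaving out replicate 3 of both diets at all times left 0.

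Variation over the 6 times was called for 23 of 39 genes in TAN (23.0% of all genes) and for 0 in ad-lib (0.0551% of all genes, 18 members at an unadjusted p under 0.05, DESeq2 0), by edgeR. A 24-h harmonic, a single cosine wave fitted over the clock times, was called for 25 of 39 in TAN (19.8% of all genes), with amplitudes of 0.36 to 0.54 on the log2 scale and peaks between 19.1 and 20.9 h after midnight (median 20.4 h). In ad-lib it was called for 0 (0.0801% of all genes), with 30 at an unadjusted p under 0.05 and 2 called by DESeq2. That the 2 diets differ in rhythm does not follow from these counts. The call in ad-lib was gained for 3 genes without replicate 1 at 4AM and for 1 without replicate 2 at 8AM.

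The group means put the low and high points at different times in the 2 diets. In ad-lib mice 36 of 39 genes were lowest at 4PM, and the highest mean was at 8AM for 23 and at 4AM for 12. In TAN mice 32 were lowest at 8AM, and the highest mean was at 12AM for 28 and at 8PM for 6. The range between the lowest and highest group mean had a median of 0.74 on the log2 scale in ad-lib and 0.88 in TAN, where all genes had medians of 0.87 and 1.36. The smallest adjusted p for variation over time was that of Atp5g2 in TAN (0.00198, edgeR quasi-likelihood) and that of Cox5a in ad-lib (0.398, not called). The TAN calls leaned on the libraries of 12AM and on those low in lymphocyte markers. Without TAN replicate 2, 3 or 4 at 12AM 10, 11 or 15 genes were called for variation over time, without TAN replicate 1 at 4PM or replicate 4 at 8AM 14 each, and without the libraries low in lymphocyte markers 9 (14 for the harmonic). The lymphocyte level as a covariate left 5 (11 for the harmonic) and the TEC share 0. Leaving out replicate 2 of both diets left 1 for variation over time, and leaving out replicate 3 of both left 1 for the harmonic.

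The balance of the 3 complexes was read from the ratios of their sums. The log2 ratio of the summed CPM of complex IV to that of complex V was −0.92 ± 0.13 in ad-lib (SD, n = 24) and −0.89 ± 0.16 in TAN, and that of complex III to complex V was −1.90 ± 0.10 in ad-lib and −1.80 ± 0.09 in TAN. The ratio was farthest from these means in TAN at 8PM, where complex IV over V was −0.63 ± 0.17 (ad-lib −0.88 ± 0.06, n = 4 each) and complex III over V was −1.68 ± 0.07 (ad-lib −1.85 ± 0.02). In the TAN replicates 1 and 2, the ones low in adipocyte markers, complex IV over V was −0.48 and −0.49 and in replicates 3 and 4 it was −0.72 and −0.82, and complex III over V was −1.62 in both against −1.76 and −1.71. These ratios were not tested.

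The c ring genes were called at different times, but whether their timing differed from each other was not tested. The 3 genes encode the same mature c subunit with different mitochondrial targeting peptides. At 4PM Atp5g3, the most abundant per length, rose from 231.0, 217.9, 168.3 and 142.8 CPM in ad-lib to 308.4, 390.6, 548.5 and 394.7 CPM in TAN (log2 fold change 1.11 ± 0.31, SE, n = 4 per diet, edgeR quasi-likelihood, Benjamini-Hochberg adjusted p = 0.0198), without overlap. Atp5g1 was at 25.1, 29.7, 31.4 and 30.0 CPM in ad-lib and 53.3, 34.6, 52.7 and 29.6 CPM in TAN at 4PM (0.55 ± 0.23, adjusted p = 0.0843), so that TAN replicate 4 fell within the ad-lib range. Atp5g2 was at 117.5, 109.5, 111.7 and 105.6 CPM in ad-lib and 143.9, 120.9, 186.9 and 124.3 CPM in TAN (0.37 ± 0.19, adjusted p = 0.169), not called although the groups did not overlap.

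At 8PM the other two c ring genes were called. Atp5g1 rose from 32.8, 40.0, 32.2 and 30.9 CPM in ad-lib to 62.0, 66.3, 53.7 and 75.2 CPM in TAN (log2 fold change 0.92 ± 0.23, edgeR quasi-likelihood, Benjamini-Hochberg adjusted p = 0.0106). Atp5g2 rose from 108.2, 141.0, 127.1 and 148.6 CPM to 271.4, 284.0, 168.0 and 190.4 CPM (0.80 ± 0.19, adjusted p = 0.00971). Both were without overlap, whereas Atp5g3 was not called (0.69 ± 0.31, adjusted p = 0.133). The call of Atp5g3 at 4PM was lost without ad-lib replicate 3 (1.08), ad-lib replicate 4 (1.01) or TAN replicate 3 (0.94). That of Atp5g2 at 8PM was lost without the TAN libraries low in adipocyte markers (0.44), while that of Atp5g1 was kept (0.92). The log2 ratio of Atp5g2 to Atp5g3 counts was −0.75 ± 0.28 in ad-lib and −1.503 ± 0.28 in TAN at 4PM (SD, n = 4), without overlap, which gives an exact two-sided permutation p of 0.0286, the smallest that 70 splits allow, and 0.171 after adjustment over the 36 ratios and times. At 8PM the ratio overlapped between the diets.

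**Figure D3:**
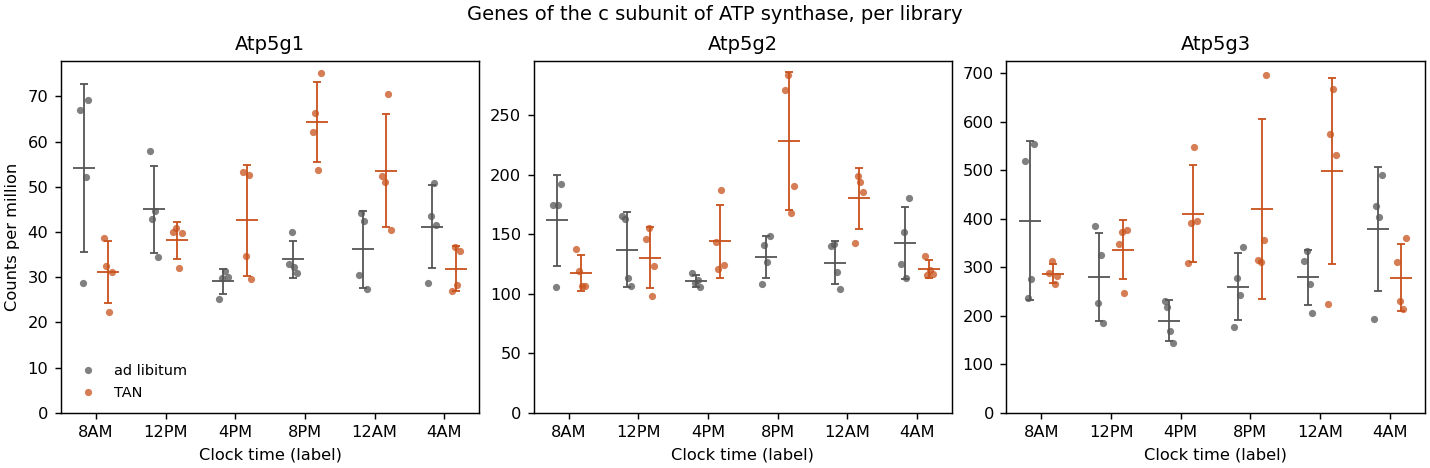
CPM of the c ring genes Atp5g1, Atp5g2 and Atp5g3 in each library by clock time, for ad-lib and TAN mice, with the mean and SD of each group. At 8PM the 4 TAN libraries lie above the 4 ad-lib libraries for Atp5g1 (53.7 to 75.2 CPM against 30.9 to 40.0 CPM) and Atp5g2, and at 4PM for Atp5g3 and Atp5g2.

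Cox7a2l, described as a factor that helps to join complex III and complex IV into supercomplexes, was read beside Cox7a2, the subunit it resembles. Supercomplexes were not measured here. At 4PM Cox7a2 rose from 142.6, 123.7, 99.3 and 117.7 CPM in ad-lib to 372.6, 226.2, 335.6 and 251.4 CPM in TAN (log2 fold change 1.295 ± 0.29, SE, n = 4 per diet, edgeR quasi-likelihood, Benjamini-Hochberg adjusted p = 0.00908). Cox7a2l was at 230.4, 230.3, 222.8 and 200.7 CPM in ad-lib and 259.7, 161.6, 374.8 and 135.3 CPM in TAN (0.08 ± 0.32, adjusted p = 0.901, and −0.04 with limma voom), with TAN libraries on either side of ad-lib. The log2 ratio of the 2 was 0.88 ± 0.21 in ad-lib and −0.44 ± 0.44 in TAN at 4PM (SD), without overlap (exact permutation p = 0.0286, adjusted p = 0.171). At 8PM Cox7a2l rose from 236.6, 259.2, 283.9 and 235.5 CPM to 705.5, 766.5, 445.9 and 272.3 CPM (1.11 ± 0.32, adjusted p = 0.0237), and TAN replicate 4 lay within the ad-lib range. The difference between times was not called for this gene (interaction adjusted p = 0.0967). The 8PM call was lost without any 1 of ad-lib replicates 1, 2 and 4 and TAN replicates 1 and 2, with a log2 fold change of 0.90 to 1.11, and without both TAN replicates 1 and 2, which were low in adipocyte markers, it was 0.50. Over the day the ratio was lower in TAN by −0.39 ± 0.17 (SE, permutation p = 0.0362 with 100000 resamples within time, adjusted over 6 pairs 0.0941), and its adjusted p passed the threshold without ad-lib replicate 1 at 8AM (−0.44), TAN replicate 2 at 8PM (−0.45), TAN replicate 1 at 12AM (−0.45) or ad-lib replicate 3 at 4AM (−0.44). The ratio was also lower in libraries low in lymphocyte markers, with a median of 0.03 against 0.73 in ad-lib and −0.66 against 0.36 in TAN, and the part of these markers in the diet difference was not tested.

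Of the 6 isoform ratios, only that of subunit 4 passed the test between the diets over the day. Cox4i2, the isoform typical of lung and induced by low oxygen, made up 1.03% to 4.34% of the subunit 4 transcripts per length in the ad-lib libraries (median 2.38%) and 0.592% to 2.50% in the TAN libraries (median 1.47%). The log2 ratio of Cox4i2 to Cox4i1 counts was lower in TAN by −0.79 ± 0.16 (SE, 2 SE interval −1.11 to −0.47, n = 24 per diet), with a two-sided permutation p of 0.00012 from 100000 resamples within time, and 0.00072 adjusted over the 6 pairs. It stayed between −0.86 and −0.70, and called, when any library or replicate number was left out. Without the 10 libraries low in lymphocyte markers it was −0.93 (adjusted permutation p = 0.00084), and without the TAN 8PM libraries low in adipocyte markers −0.72 (adjusted p = 0.00162). By time the difference was −1.06 at 4PM, −1.53 at 8PM and −1.22 at 12AM, and 0.08 at 4AM, and only 4PM was free of overlap (exact permutation p = 0.0286, adjusted p = 0.171). In libraries that were not low in lymphocyte markers the median ratio was −6.18 in ad-lib (n = 20) and −6.95 in TAN (n = 18), and in those that were it was −6.96 (n = 4) and −7.70 (n = 6).

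Of the pair, Cox4i1 was called at 4PM and Cox4i2 was not. At 4PM Cox4i2 was at 6.07, 8.12, 7.35 and 5.34 CPM in ad-lib and 6.59, 6.27, 7.13 and 9.21 CPM in TAN (log2 fold change 0.12 ± 0.35, edgeR quasi-likelihood, Benjamini-Hochberg adjusted p = 0.851). The diets overlapped except for TAN replicate 4, which was above every ad-lib library, and without it the log2 fold change of Cox4i2 was −0.015. The mean difference of Cox4i2 over the day was −0.34 ± 0.14 (adjusted p = 0.141). Cox4i1 rose at 4PM from 560.3, 567.1, 417.0 and 455.0 CPM to 1398, 839.8, 1482 and 908.9 CPM (1.21 ± 0.28, adjusted p = 0.00921), without overlap.

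**Figure D4:**
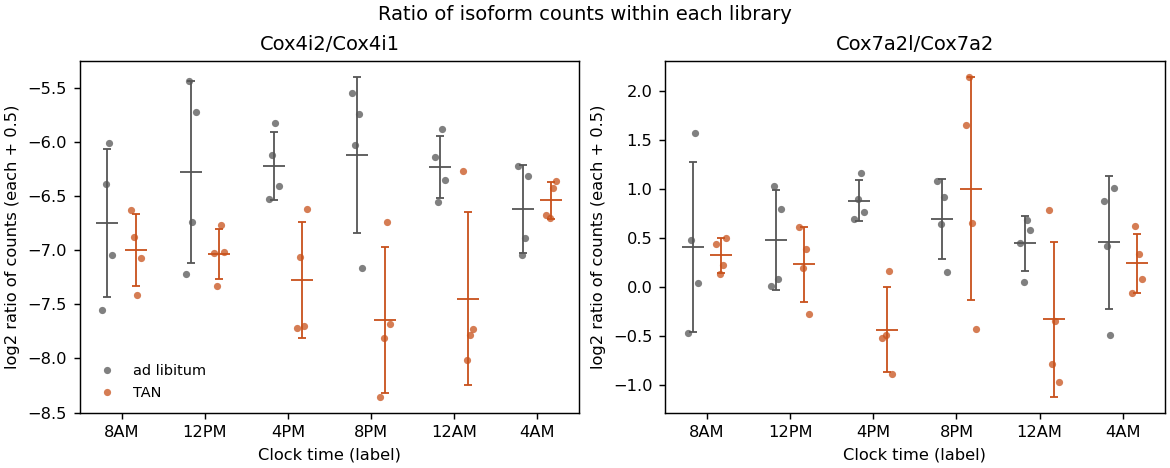
Log2 ratio of counts for Cox4i2 over Cox4i1 and Cox7a2l over Cox7a2 by clock time in ad-lib and TAN mice, as single libraries with the mean and SD of the 4 libraries of each group. For Cox4i2 over Cox4i1 the TAN mean is lower than the ad-lib mean at 5 of the 6 times and higher by 0.08 at 4AM.

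The muscle isoform Cox6a2 was rare and uneven. Its counts at 4PM were 13, 11, 24 and 29 in ad-lib and 0, 0, 0 and 1 in TAN (edgeR quasi-likelihood, Benjamini-Hochberg adjusted p = 0.0667), a pair of groups that did not overlap but were not called. The highest count was 794 in ad-lib replicate 3 at 4AM, the library in which the skeletal muscle markers were also highest (mean log2 CPM 8.46). Its partner Cox6a1, the general isoform, rose at 4PM from 307.9, 312.9, 229.6 and 249.4 CPM to 494.0, 539.5, 698.9 and 530.6 CPM (log2 fold change 1.04 ± 0.30, adjusted p = 0.0216), without overlap. Cox6b2, the testis isoform, was at 1.53, 0.738, 0.938 and 1.23 CPM in ad-lib and 0.488, 1.24, 1.34 and 1.06 CPM in TAN at 4PM (−0.10 ± 0.71, adjusted p = 0.944), and Cox6b1 rose from 193.9, 167.5, 147.3 and 121.8 CPM to 322.8, 303.9, 398.8 and 386.9 CPM (1.16 ± 0.31, adjusted p = 0.0154). The calls of Cox6a1 and Cox6b1 were lost without ad-lib replicate 3 (0.98 and 1.15) or ad-lib replicate 4 (1.01 and 1.07), and that of Cox6a1 also without TAN replicate 3 (0.93). Over the day the ratios of Cox6a2 to Cox6a1 (−1.44 ± 0.73, adjusted permutation p = 0.0941) and of Cox6b2 to Cox6b1 (−0.37 ± 0.39, adjusted p = 0.368) did not pass the threshold, and both did without ad-lib replicate 1 at 8AM (−1.71 and −0.68), a library with 0 counts of either rare isoform. The ratio of Atp5g1 to Atp5g3 (−0.23 ± 0.12, adjusted p = 0.0941) passed without TAN replicate 1 at 12AM (−0.29), and that of Atp5g2 to Atp5g3 (−0.19 ± 0.12, adjusted p = 0.155) with no single library left out. Without replicate 1 of both diets the ratios of Cox6a2 (−2.23), Cox7a2l (−0.53) and Atp5g1 (−0.36) passed. Without the TAN 8PM libraries low in adipocyte markers, chosen after seeing the data, those of Cox6a2 (−1.66), Cox7a2l (−0.54), Atp5g1 (−0.29) and Atp5g2 (−0.29) passed. Without the libraries low in lymphocyte markers these were −0.85, −0.26, −0.17 and −0.22 and that of Cox6b2 −0.14, and none of the 5 passed (adjusted permutation p of 0.252 to 0.766).

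The partners of these complexes were read with the same edgeR fit, from lists of other respiratory chain genes. Cyc1, the cytochrome c1 subunit of complex III, and Cycs, cytochrome c, which carries electrons from complex III to complex IV, both rose at 4PM (log2 fold change 1.25 with adjusted p = 0.0111 and 1.64 with adjusted p = 0.00618) and neither was called at 8PM. At 4PM 36 of 37 nuclear complex I genes (median 1.15) and 4 of 4 complex II genes (median 1.11) also rose, beside 6.54% of all genes, and at 8PM 9 and 0 (1 at an unadjusted p under 0.05) did, beside 3.76%. Of the 6 mitochondrially encoded subunits of complexes III to V, which join the nuclear subunits, only mt-Co1 rose at 4PM (0.97, adjusted p = 0.039) and 0 were called at 8PM (2 at an unadjusted p under 0.05), where 3 had a positive and 3 a negative fold change, the lowest being that of mt-Atp6 (−2.14, adjusted p = 0.0585).

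Of the assembly factors, at 4PM 1 of 6 of complex III rose (Bcs1l, which inserts the Rieske protein). In the lists for complexes IV and V 5 of 19 and 3 of 5 (Atpaf2, Tmem70 and Tmem242) rose, beside 6.54% of all genes. The complex V list also held Atpif1, an inhibitor of the ATP synthase and not an assembly factor, which was not called (log2 fold change 0.26, edgeR adjusted p = 0.494). Cox17, the chaperone that delivers copper for complex IV, went the other way and was the only assembly factor that fell, by 1.21 on the log2 scale at 4PM (adjusted p = 0.0407) and by 1.89 at 8PM (adjusted p = 0.00500, edgeR quasi-likelihood, Benjamini-Hochberg). At 8PM, where 3.76% of all genes rose, the complex III factor Uqcc3 (0.77, adjusted p = 0.0385) and 3 complex IV factors rose, namely Coa3 (adjusted p = 0.0224), Coa6 (0.87, adjusted p = 0.0436) and Cox16 (1.03, adjusted p = 0.0192).

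The level of the 42 genes also went with the lymphocyte markers across libraries. In ad-lib mice, where no member was called for variation over time, the 4 libraries low in lymphocyte markers had summed levels of 10220 to 16660 CPM (median 14090), and the other 20 had 6482 to 16030 CPM (median 9009). In TAN mice the 6 low libraries had 12990 to 23680 CPM (median 18960) and the other 18 had 8633 to 21690 CPM (median 11910). Within either kind of library the TAN median was above the ad-lib median, and the ranges overlapped. The cut between the kinds was chosen after the values were seen, the kinds are unevenly spread over time, and no test was made of this difference.

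**Figure D5:**
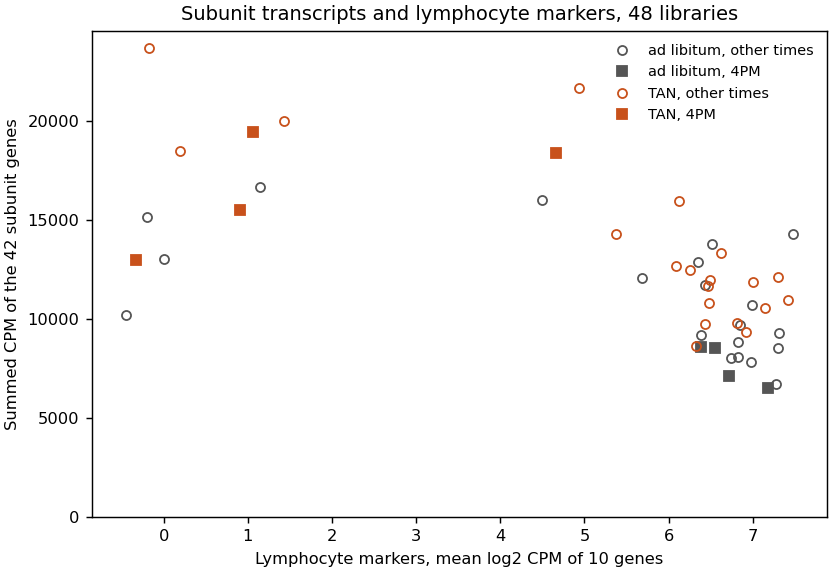
Summed CPM of the 42 genes against the mean log2 CPM of the 10 lymphocyte markers in the 48 libraries, for ad-lib and TAN mice. In 10 libraries the marker level is under 2, and in 38 it is 4.50 or more. The TAN libraries low in lymphocyte markers lie between 12990 and 23680 CPM, and the ad-lib ones between 10220 and 16660 CPM.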

How the data were processed

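Poly-A RNA of sWAT was sequenced in 48 libraries, 4 for each of 2 diets at 6 times, grouped by the sample labels. The authors deposited raw counts per gene, and the gene lengths and coordinates in the same deposited table, which match GRCm38, were used as given. The submitters' processing notes list TopHat 1.3.3, DESeq2 1.20.0, limma and edgeR. Which tool aligned or counted, and whether strand was used, is not given in the sources used here. A further table of group FPKM means was not used. The members and gene lists were chosen with earlier results of these data known.

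Counts were tested with edgeR 4.0.16 (R 4.3.3) by the robust quasi-likelihood test in 1 fit of 12 groups, after filterByExpr with a minimum count of 10 and TMM scaling. Adjustment (Benjamini-Hochberg) was over all 19977 genes that passed, with a threshold of 0.05. CPM on the log2 scale used a prior count of 2. Isoform ratios were log2 of counts plus 0.5 and were tested by two-sided permutation of diet within time (100000 resamples, SciPy 1.17.1), with intervals of 2 SE. The alternatives were DESeq2 1.42.0, limma 3.58.1 voom, other scalings, filters and thresholds, marker covariates, a replicate block and each library left out. The code was tested on simulated data. Nothing in the labels says that the 4 libraries of a group came from separate animals. Figure legends of the study differ on n for these mice, and give n = 4 in some panels only. The p-values measure the spread between these samples, which by the labels alone may be technical. Floors for 0 counts cover counting error only.

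Values in every library of 4PM, 8PM or both were given for Uqcrc2 and Atp5a1, whose proteins the study measured, for the 2 called members of each complex with the largest fold change at the time with most calls, for both genes of each isoform pair that passed the filter, and for the gene with the smallest adjusted p over time in each diet. Other genes named were chosen after their values were seen. Promoters came from RefSeq tables of GRCm38.p6.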

Additional observations from a re-analysis of the deposited data

Results flagged for a closer look

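In 13 of 276 sets of 4 libraries examined, 1 library stood apart from the other 3 by Dixon's test. Chance alone flags about 1 in 20 of all sets examined, so the number flagged is near what chance gives. Ad-lib replicate 1 at 4AM was low, with a complex V sum of 4451 CPM (others 7458 to 7735 CPM), Atp5o at 76.9 CPM (162.1 to 169.6 CPM) and Cox6b1 at 157.7 CPM (300.4 to 328.6 CPM). TAN replicate 3 at 12PM was low in Cox4i1 (549.5 CPM, others 848.8 to 903.6 CPM) and in Atp5g1 (32.0 CPM, others 39.7 to 40.9 CPM). The muscle isoform Cox6a2 stood apart in 4 libraries, at 41.3 CPM in ad-lib replicate 3 at 4AM (others 0.688 to 1.18 CPM), 10.02 CPM in TAN replicate 1 at 12PM (0.728 to 1.69 CPM), 6.29 CPM in ad-lib replicate 1 at 8PM (0.652 to 0.937 CPM) and 0.0558 CPM, a single count, in TAN replicate 4 at 4PM (others at 0). Single libraries were high in Cox6b2 (1.81 CPM in TAN replicate 4 at 8AM, others 0.591 to 0.674 CPM), Cox5a (89.4 CPM in ad-lib replicate 4 at 8PM, others 71.0 to 73.4 CPM), Atp5g3 (697.3 CPM in TAN replicate 4 at 8PM, others 310.1 to 356.0 CPM) and Cox4i2 (14.5 CPM in ad-lib replicate 4 at 4AM, others 6.20 to 7.49 CPM).

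The TAN effect differed between the times for 26 members by the edgeR test of the interaction. Of the 20 genes given by library 12 were called and 8 were not, among them Uqcrc2 (0.0918), Atp5a1 (0.0987) and Cox7a2l (0.0967). Of those called, the Benjamini-Hochberg adjusted p was 0.00681 for Atp5g1, 0.0172 for Atp5g2 and 0.0348 for Atp5g3 in the c ring, 0.0160 for Atp5j2 and 0.0393 for Atp5o in the rest of complex V, 0.0274 for Uqcrq and 0.0312 for Uqcrb in complex III, and 0.0125 for Cox6c, 0.0173 for Cox5a, 0.0177 for Cox4i1, 0.0228 for Cox7c and 0.0293 for Cox7a2 in complex IV (edgeR quasi-likelihood).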

How the results depend on the processing

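At 4PM, 388 of 458 values of the 20 genes given by library, over the alternatives, kept their direction and side of the threshold, and at 8PM 375 of 458. Counts of called members (4PM 32, 8PM 16, average 25, interaction 26, variation over time in TAN 23, harmonic in TAN 25) depended on the covariates. With the TEC share they were 0, 0, 6, 0, 0 and 0, and the same numbers with the TEC share and lymphocyte level together, which gave 5 at 12PM. With the lymphocyte level alone they were 0 at 4PM, 4 for the interaction, 5 for variation and 11 for the harmonic. Without the 10 libraries low in lymphocyte markers (chosen after seeing the data) the last 3 were 12, 9 and 14. At an unadjusted p under 0.05 there were 3 at 8AM, 3 at 12PM, 31 at 8PM, 34 at 12AM, 1 at 4AM, and in ad-lib 18 for variation and 30 for the harmonic. An absolute log2 fold change above 1 left 1 at 8PM and 0 for the average, and a fit of each time alone 0 at 8PM. At 12AM DESeq2 called 22, RLE factors 1 and a filter of 10 counts in every library 1, and DESeq2 called 2 for the harmonic in ad-lib. Shares of all genes called under the alternatives are not given here, so these counts have no background beside them. The cause of these changes was not tested.

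Leaving out 1 library, or 1 replicate number in both diets, gave 0 to 1 at 8AM, 1 to 32 at 4PM (14 without ad-lib replicate 3), 1 to 14 at 8PM, 0 to 28 at 12AM (28 without TAN replicate 1), 1 to 30 for the average (15 without ad-lib replicate 1 at 4AM), 0 to 34 for the interaction, 1 to 34 for variation in TAN, 0 to 3 for the harmonic in ad-lib and 1 to 30 in TAN. The lowest counts at 4PM (1), for the average (1), for the interaction (0) and for the harmonic in TAN (1) came without replicate 3 of both diets. The isoform ratios ran from −2.23 to −0.97 for Cox6a2, −0.68 to −0.14 for Cox6b2, −0.53 to −0.22 for Cox7a2l and −0.36 to −0.15 for Atp5g1. Without the TAN 8PM libraries low in adipocyte markers (chosen after seeing the data) those of Cox6a2 (−1.66), Cox7a2l (−0.54), Atp5g1 (−0.29) and Atp5g2 (−0.29) came under the threshold.

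Single genes turned direction. At 8PM with the TEC share the log2 fold change was −0.17 for Atp5a1, −0.12 for Uqcrb, −0.16 for Cox7c, −0.11 for Atp5o, −0.014 for Cox6a1, −0.19 for Cox6b1, −0.14 for Cox7a2 and −0.058 for Atp5g3. With the lymphocyte level added it was −0.070 for Uqcrc2, −0.24 for Atp5a1, −0.048 for Uqcrq, −0.16 for Uqcrb, −0.19 for Cox7c, −0.016 for Atp5j2, −0.23 for Atp5o, −0.13 for Cox6a1, −0.29 for Cox6b1, −0.20 for Cox7a2 and −0.18 for Atp5g3. At 4PM the TEC share gave −0.16 for Cox4i2, −0.58 for Cox7a2l and −0.015 for Atp5g2, voom gave −0.043 for Cox7a2l, and Cox6b2 was 0.26 without the libraries low in lymphocyte markers and 0.32 with their level as a covariate. Cox4i2 at 8PM was 0.15 without the 2 TAN libraries low in adipocyte markers. Without 1 library, Cox4i2 at 4PM ran from −0.015 to 0.24, Cox6b2 from −0.25 to 0.13, Cox7a2l from −0.25 to 0.26, and Cox6a2 at 8PM from −0.23 to 1.80.

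Whether the replicate numbers pair the samples cannot be settled here, and they were not used as pairs in the main test. Of 24 same-numbered pairs 10 had a correlation of deviations over 0.1 (median −0.0127, from −0.586 to 0.844 over 5000 genes). With the replicate number as a block 33 members were called at 4PM, 15 at 8PM and 22 for the average, and Cox6a2 at 8PM was −0.18.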
